A study of Mus musculus with 6 samples.

Results

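Xenobiotic metabolism turns foreign, often fat-soluble compounds into forms that can be exported, and the intestinal epithelium is the first tissue to meet those taken up with food. Phase I enzymes, such as cytochromes P450 and carboxylesterases, oxidise or hydrolyse a compound, conjugating enzymes attach sulfate or glucuronic acid to it, and ATP-binding cassette transporters pump it out of the cell. The ligand-activated aryl hydrocarbon receptor (Ahr), the pregnane X receptor (PXR, Nr1i2) and the constitutive androstane receptor (CAR, Nr1i3) sense such compounds and drive transcription of many of these genes. The genes described here are 38 members of this system, chosen by name and role and not by their values. Earlier results of these data were known when they were chosen. Of the 38, 36 had a probe set naming them alone and entered the comparison of 19938 genes. Ugt1a1 was found only on a probe set naming 8 Ugt1a genes, and Ces2c is not analysed here.

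Expression was measured on 6 Affymetrix whole-transcript arrays of dissected normal duodenum from C57Bl6 mice, 3 Apc+/- and 3 Apc+/-Atg7-/-. Both groups thus carry the same genotype of Apc, a brake on Wnt signalling, and differ at Atg7, an enzyme that autophagosome formation needs. By its title the series is about what loss of Atg7 does to intestinal tumour formation, and these arrays compare duodenum that was not tumour. The labels give no age, sex, Apc allele, means of deleting Atg7 or cell type of the deletion, nor do they say that each array is a separate animal, so the spread behind a p-value may be technical. Levels are log2 signals, on which a difference of 1 is a 2-fold change, and differences are Apc+/-Atg7-/- minus Apc+/- with limma's standard error (SE).

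Atg7 signal was 7.05, 7.17 and 7.27 in Apc+/- replicates 1 to 3 and 6.46, 6.65 and 6.78 in Apc+/-Atg7-/- replicates 1 to 3. That difference of -0.53 (SE 0.11) did not itself pass after adjustment over all genes (adjusted p = 0.242 by limma). Apc differed by 0.05 (SE 0.09). Array medians spanned 6.43 to 6.56. Read from Xist (4.58) and the Y-linked Eif2s3y (8.44), Apc+/-Atg7-/- replicate 1 is the single male, since the other 5 arrays had Xist at 10.1 to 10.3 and Eif2s3y at 3.10 to 3.46. All 8 duodenal markers measured, among them Pdx1 and Gata4, lay above the dimmest 25% of genes (mean signal below 5.63), and 21 enterocyte markers averaged 11.0 to 11.5 per array. The ileal genes Fabp6 and Slc10a2 had 6.11 to 6.72 and 5.13 to 5.51, and Fabp6 overlapped the duodenal marker Cck (6.41 to 6.83). Car4, also on the ileum and colon list, had 8.20 to 11.11. Only 1 of 5 ileum and colon markers and 2 of 6 stomach markers lay in the dimmest 25%, so that cut does not tell gut regions apart. Of 8 hepatocyte markers measured 5 lay in the dimmest 25%, Alb among them at 5.04 to 5.20, while Cps1, which enterocytes also express, had 10.9 to 11.3. With 3 arrays per genotype precision is limited, and array signal carries no read depth.

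No member of the system passed the test between genotypes. By limma with Benjamini-Hochberg adjustment over all genes, 0 of 36 members were higher and 0 lower at an adjusted p under 0.05, against 0.0702% and 0.0401% of all genes. At an unadjusted p under 0.05, 1 member was higher (Abcc3) and 2 were lower (Cyp2b10 and Cyp2j6), where 2.38% and 2.73% of all genes were. Past 1.5-fold as well as that p, 0 members were higher and 1, Cyp2b10, was lower, beside 0.211% and 0.321% of all genes. Arrays did not overlap between genotypes for 0 members in the higher and 1 in the lower direction (Cyp2j6), beside 4.81% and 5.23% of all genes. In sign alone, 28 of 36 members were lower and 8 higher, beside 11327 lower and 8611 higher of all genes, and the median difference was -0.10 against -0.02 over all genes. Many of these genes spread widely among samples of 1 genotype. The SD within genotypes, pooled over both, was at least 0.5 in 9 of 36 members (25%) and in 0.737% of all genes. Its median was 0.298 for the members and 0.127 for all genes. For the 25 members outside P450 families 2 and 3 it was 0.246. Smooth muscle (0.350) and Paneth cell markers (0.316) had higher medians than the members. The other cell and region marker lists had lower ones, such as 0.181 for enterocytes. The count of 9 was chosen as a measure after the values were seen, so it is a description and has no test.

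**Figure D1:**
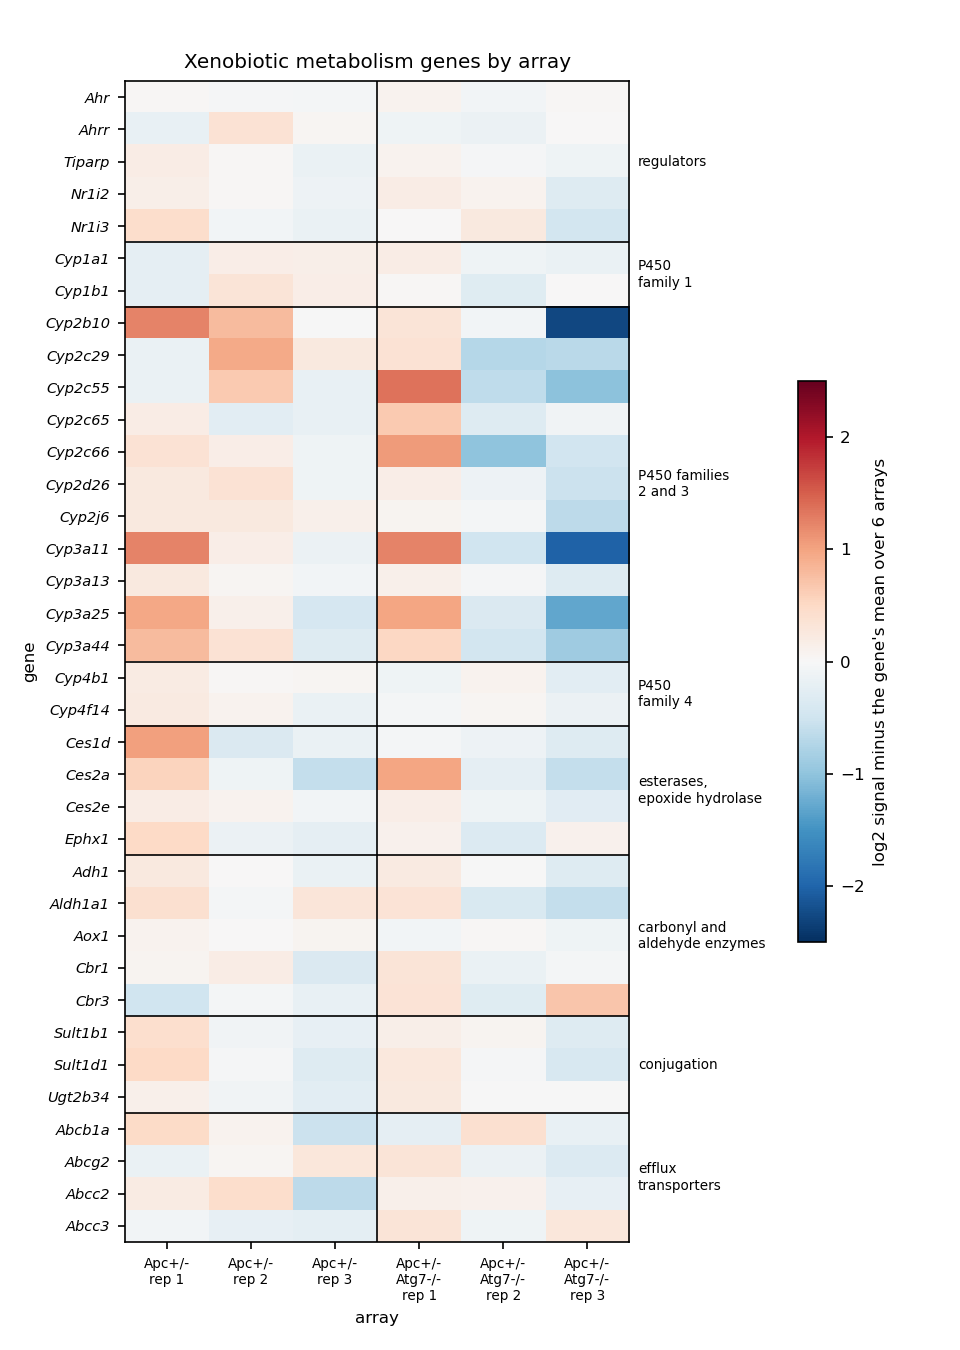
Signal of 36 xenobiotic metabolism genes on each of 6 arrays, as log2 signal minus the gene's mean over the 6 arrays (colour), with genes in rows by role and Apc+/- arrays left of the vertical line. The darkest cells are in the P450 families 2 and 3, with Apc+/- replicate 1 and Apc+/-Atg7-/- replicate 1 mostly above each gene's mean and Apc+/-Atg7-/- replicate 3 mostly below it.

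The 3 receptors that sense xenobiotics differed between genotypes by 0.13 or less in size, with pooled SDs of 0.063 for Ahr, 0.216 for Nr1i2 and 0.342 for Nr1i3. Ahr had signals of 7.42, 7.38 and 7.35 in Apc+/- and 7.50, 7.34 and 7.43 in Apc+/-Atg7-/- duodenum, a difference of 0.04 (SE 0.09, 95% interval -0.16 to 0.24). Nr1i2 (PXR) had 8.35, 8.24 and 8.09 against 8.40, 8.30 and 7.88, a difference of -0.03 (SE 0.14, interval -0.34 to 0.28). Nr1i3 (CAR) had 8.72, 8.20 and 8.11 against 8.29, 8.52 and 7.82, with a difference of -0.13 (SE 0.20, interval -0.57 to 0.31). For all 3 receptors the arrays of the genotypes overlapped, and Apc+/-Atg7-/- replicate 3 was the lowest of 6 for both nuclear receptors but not for Ahr. The direction for Nr1i2 turned when arrays were centred on their medians (0.00087).

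The Ahr-induced members Cyp1a1, Cyp1b1, Ahrr and Tiparp differed by less than 0.2 in size, and their arrays overlapped between genotypes. Cyp1a1, the P450 that Ahr ligands induce most classically, had 5.02, 5.41 and 5.40 in Apc+/- and 5.43, 5.14 and 5.08 in Apc+/-Atg7-/- duodenum (difference -0.06, SE 0.14), within the dimmest 25% of genes. Ahrr, the repressor that Ahr induces against itself, had 4.77, 5.31 and 5.0 against 4.85, 4.81 and 4.97 (-0.15, SE 0.13) and was as dim. Tiparp, an ADP-ribosyltransferase and a further feedback inhibitor of Ahr, had 8.84, 8.69 and 8.50 against 8.74, 8.63 and 8.56 (-0.03, SE 0.11). For each of the 3, the highest and the lowest array lay less than 1.5-fold apart. Cyp1b1, which metabolises polycyclic hydrocarbons and oestrogens, differed by -0.18 (SE 0.15) within a range of 6.35 to 6.97. A list of 9 Ahr targets, 7 of them measured, had a median difference of -0.06, with 0 past the adjusted test and 1 higher at an unadjusted p under 0.05. That gene, named after its values were seen, was the quinone reductase Nqo1, which is also a target of Nrf2 (0.68, SE 0.14, adjusted p = 0.255 by limma).

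Cyp2b10, the classical CAR target, had the largest difference and the widest range of the 36. Its signal was 11.33, 10.87 and 10.07 in Apc+/- and 10.40, 10.02 and 7.82 in Apc+/-Atg7-/- duodenum, an 11.4-fold span from the highest to the lowest array. Apc+/-Atg7-/- replicates 1 and 2 lay within or just under the Apc+/- range, and replicate 3 lay 6.0-fold below replicate 1 of its own genotype. The means of 10.8 ± 0.64 and 9.41 ± 1.40 (SD, n = 3) differed by -1.34 (SE 0.57, interval -2.63 to -0.06), or 2.53-fold, with an adjusted p of 0.950 by limma. Without Apc+/-Atg7-/- replicate 3 the difference was -0.54, and without the male array it was -1.84.

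Among the Cyp2c genes, which lie side by side on 1 chromosome and oxidise drugs and fatty acids, the male array was the highest of 6 for Cyp2c55, Cyp2c65 and Cyp2c66. Cyp2c55 had 8.38, 9.21 and 8.37 in Apc+/- and 9.92, 7.93 and 7.53 in Apc+/-Atg7-/- duodenum, a 5.26-fold span within the latter, and the difference of -0.20 (SE 0.51) was smaller than either SD. Cyp2c66 had 8.98, 8.80 and 8.52 against 9.68, 7.61 and 8.14 (-0.29, SE 0.42). In both genes the 2 female Apc+/-Atg7-/- arrays were below all Apc+/- arrays and the male was above them. Cyp2c65 shared the high male value with less spread, at 10.07, 9.62 and 9.69 against 10.54, 9.57 and 9.80 (0.18, SE 0.23). Cyp2c29 had 4.88, 6.01 and 5.31 against 5.41, 4.34 and 4.38, a difference of -0.69 (SE 0.32, interval -1.41 to 0.02, adjusted p = 0.950 by limma). Its probe set is in the dimmest 25% of genes, and its highest array was Apc+/- replicate 2.

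The Cyp3a genes, whose products oxidise a very wide range of drugs and steroids and which PXR induces, differed among themselves in how widely they spread. Cyp3a11, the main mouse counterpart of human CYP3A4, had 10.55, 9.48 and 9.16 in Apc+/- and 10.55, 8.81 and 7.28 in Apc+/-Atg7-/- duodenum. Its highest and lowest arrays were thus of the same genotype and 9.66-fold apart. The difference of -0.85 (SE 0.67, interval -2.34 to 0.65) was -0.05 without Apc+/-Atg7-/- replicate 3. Cyp3a25 had the same replicate order within each genotype, with 9.92, 9.08 and 8.52 against 9.94, 8.60 and 7.65 (-0.45, SE 0.51). So did Cyp3a44, with 6.61, 6.18 and 5.50 against 6.35, 5.36 and 4.94 (-0.55, SE 0.35), though its highest array was Apc+/- replicate 1. In all 3 genes replicate 1 of each genotype was the highest of its group and replicate 3 the lowest, and the numbers are labels without an order. Cyp3a13 had this replicate order in both genotypes too, at 11.48, 11.27 and 11.16 against 11.36, 11.20 and 10.91. Its range was narrower, from 10.91 to 11.48 over all 6 arrays (-0.15, SE 0.13), with the same array lowest. Near-identical Cyp3a copies can share probes, so the levels of single Cyp3a genes are uncertain. Rows naming several Cyp3a genes at once (Cyp3a11 with 3 others, Cyp3a25 with 2 others) spanned 4.42-fold and 7.26-fold over the arrays and were also lowest in Apc+/-Atg7-/- replicate 3. The row naming Cyp3a44 with Cyp3a41a and Cyp3a41b spanned 4.42-fold as well, and there Apc+/-Atg7-/- replicates 2 and 3 were both lowest, at 4.73. In this row and in that naming Cyp3a11 with 3 others, Apc+/- replicate 2 (5.20 in both) lay below Apc+/- replicate 3 (5.50 and 5.52).

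The stretches upstream of these 4 genes are shown because Cyp3a44, Cyp3a11 and Cyp3a25 are neighbours that spread widely. Cyp3a13 is not their neighbour, and it had the same replicate order over a narrower range. Each is the 250 bases before the gene's start in RefSeq (GRCm38.p6, minus strand, written in the direction of transcription), at chr5:145879855-145880104 for Cyp3a11, chr5:146009619-146009868 for Cyp3a25 (the first of its 2 windows), chr5:145805875-145806124 for Cyp3a44 and chr5:137921620-137921869 for Cyp3a13. Capitals mark the nuclear receptor half-sites AGTTCA and AGGTCA on either strand.
Cyp3a11: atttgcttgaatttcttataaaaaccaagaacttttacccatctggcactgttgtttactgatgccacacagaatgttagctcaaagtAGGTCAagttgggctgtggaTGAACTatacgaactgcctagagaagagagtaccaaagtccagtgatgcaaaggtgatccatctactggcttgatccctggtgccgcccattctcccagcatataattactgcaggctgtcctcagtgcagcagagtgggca
Cyp3a25: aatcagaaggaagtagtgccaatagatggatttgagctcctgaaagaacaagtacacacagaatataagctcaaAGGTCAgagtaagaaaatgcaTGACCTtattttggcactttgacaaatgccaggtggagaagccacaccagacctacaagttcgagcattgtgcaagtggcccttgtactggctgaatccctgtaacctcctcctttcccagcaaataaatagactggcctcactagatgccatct
Cyp3a44: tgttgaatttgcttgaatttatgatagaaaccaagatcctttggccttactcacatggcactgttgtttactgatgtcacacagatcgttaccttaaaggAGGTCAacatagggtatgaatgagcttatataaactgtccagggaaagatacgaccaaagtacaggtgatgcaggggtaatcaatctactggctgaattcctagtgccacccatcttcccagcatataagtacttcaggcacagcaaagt
Cyp3a13: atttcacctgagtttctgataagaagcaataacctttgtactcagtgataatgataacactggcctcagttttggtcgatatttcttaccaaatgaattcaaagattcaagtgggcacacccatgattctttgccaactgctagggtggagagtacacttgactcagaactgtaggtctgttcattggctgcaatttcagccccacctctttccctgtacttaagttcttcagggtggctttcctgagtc
These windows hold 2, 2, 1 and 0 matches in the order shown. A match is a run of letters and not a binding site, and AGTTCA or AGGTCA was present in 24.2% of 32851 such windows in the table. Among members, 35 had an entry in the table and 12 of them held a half-site in at least 1 of their windows. Of members with a pooled SD of at least 0.5, Cyp2c29 and Ces2a also held a half-site, but Cyp2b10, Cyp2c55 and Cyp2c66 did not. Members with less spread, such as Cbr1, Sult1b1, Abcg2 and Abcc2, held one as well. A link between half-sites and spread was not tested. The Ahr core motif GCGTG was searched on both strands and can share end bases with a half-site. It was in 28.2% of all windows and, in at least 1 window, in 10 of the 35 members, a similar share. These were Cyp1a1, Cyp1b1, Ahrr, Tiparp, Aox1, Cbr1, Cyp2b10, Cyp4f14, Sult1b1 and Sult1d1.

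**Figure D2:**
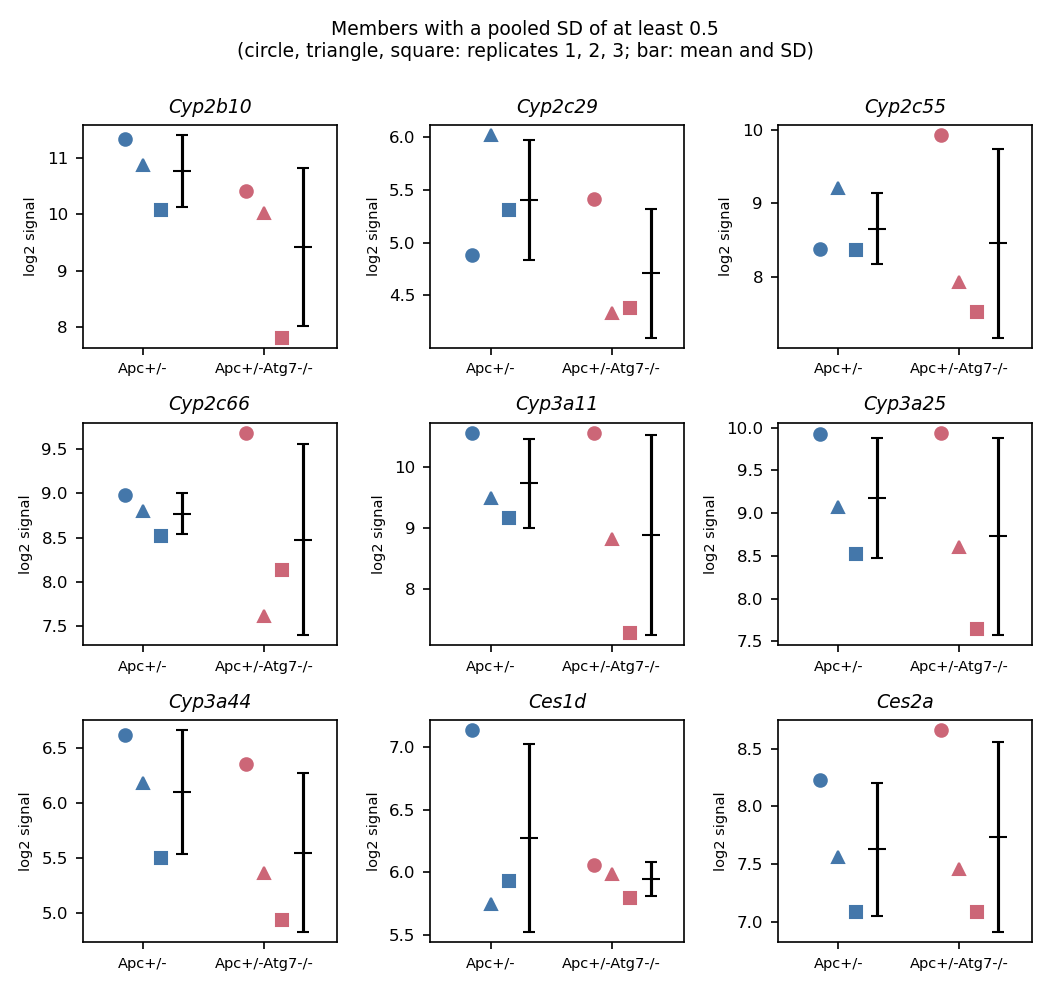
Log2 signal (vertical axis, a separate scale for each gene) of the 9 members with a pooled SD of at least 0.5, by genotype, with 1 point per array, the replicate number as the symbol, and the mean and SD (n = 3) as a bar beside the points. In 7 of the 9 the genes are P450s of families 2 and 3, and the Apc+/-Atg7-/- square lies lowest of its group for Cyp2b10, Cyp2c55, Cyp3a11, Cyp3a25, Cyp3a44, Ces1d and Ces2a.

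Cyp2j6, an epoxygenase of arachidonic acid, was the 1 member whose genotypes did not overlap. It had 8.76, 8.77 and 8.65 in Apc+/- and 8.60, 8.48 and 7.88 in Apc+/-Atg7-/- duodenum, a difference of -0.41 (SE 0.17, interval -0.78 to -0.04, adjusted p = 0.935 by limma), or 1.33-fold. The highest Apc+/-Atg7-/- array lay just under the lowest Apc+/- array, replicate 3 again lay farthest below, and without it the difference was -0.19. Centred on array medians, the genotypes overlapped. Cyp2d26 differed by -0.33 (SE 0.18). In family 4, whose enzymes hydroxylate fatty acids, Cyp4b1 (-0.19, SE 0.11) and Cyp4f14 (-0.09, SE 0.12) stayed within 7.41 to 7.89 and 10.07 to 10.48. Over the 11 P450s of families 2 and 3, 10 were lower and 1 higher with a median of -0.41. Over all genes 11327 were lower and 8611 higher, with a median of -0.02. Leaving out 1 array turned the direction for Cyp2c55, Cyp2c65, Cyp2c66 and Cyp3a25. Over the other 25 members the median was -0.08.

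**Figure D3:**
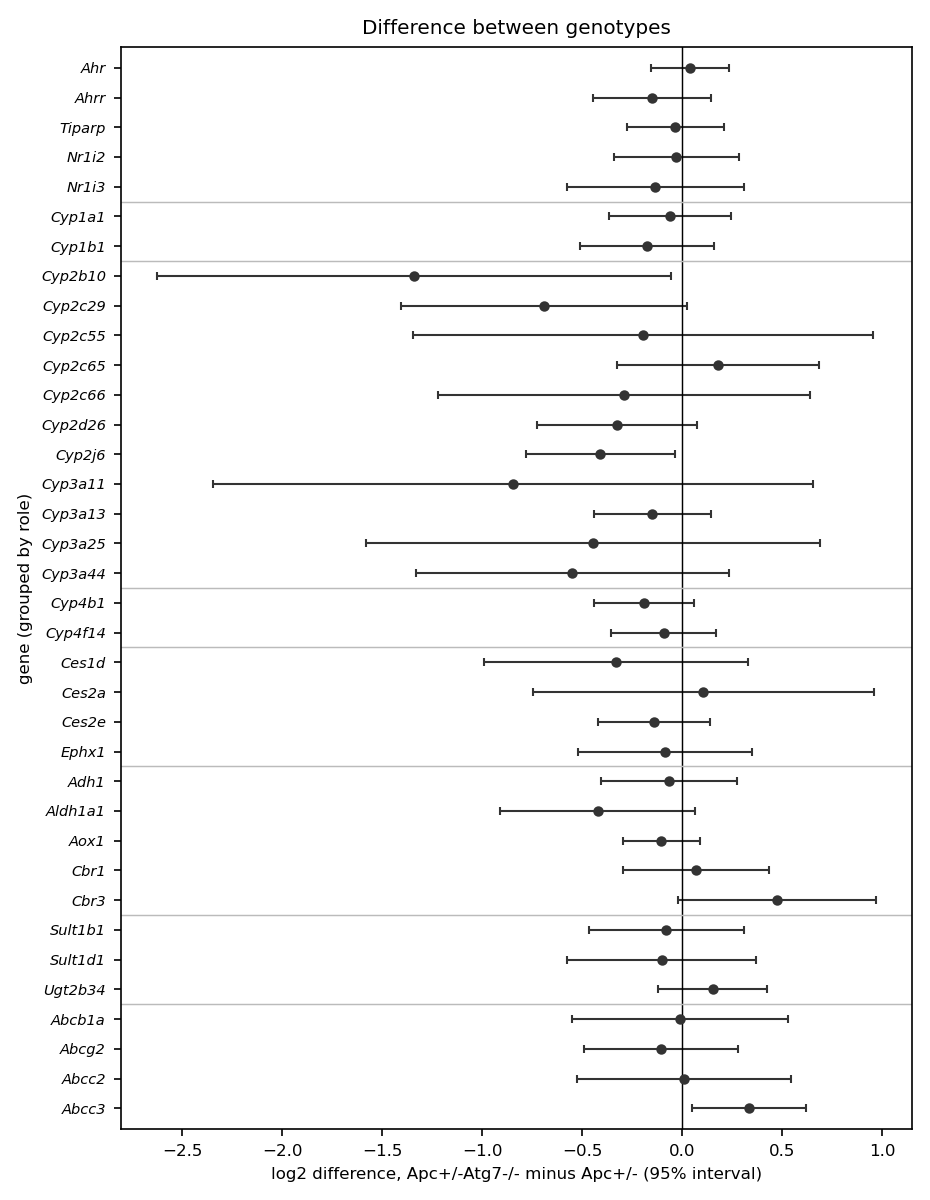
Log2 difference between genotypes (horizontal axis, Apc+/-Atg7-/- minus Apc+/-) for the 36 genes grouped by role, as limma's estimate with its 95% interval. The intervals of Cyp2b10, Cyp2j6 and Abcc3 do not include 0, no gene passed after adjustment over all genes, and the widest intervals are those of Cyp3a11 and Cyp2b10.

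The carboxylesterases, which hydrolyse ester drugs and lipids, split between wide and narrow spreads. Ces2a had 8.23, 7.56 and 7.09 in Apc+/- and 8.66, 7.45 and 7.08 in Apc+/-Atg7-/- duodenum (0.11, SE 0.38), so that replicate 1 was high in both genotypes, as for Cyp3a11. Ces1d had 7.14, 5.75 and 5.93 against 6.05, 5.98 and 5.79 (-0.33, SE 0.30), and its spread came from the single high array Apc+/- replicate 1, without which the difference was 0.10. Ces2e, which neighbours Ces2c, stayed within 10.04 to 10.49 (-0.14, SE 0.13). The epoxide hydrolase Ephx1 differed by -0.09 (SE 0.19).

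Carbonyl and aldehyde enzymes gave differences in both directions. Aldh1a1, a retinaldehyde dehydrogenase, had 9.15, 8.70 and 9.05 in Apc+/- and 9.10, 8.38 and 8.16 in Apc+/-Atg7-/- duodenum (-0.42, SE 0.22, interval -0.91 to 0.07). Its male array lay within the Apc+/- range and the 2 female Apc+/-Atg7-/- arrays below it. Cbr3, a carbonyl reductase next to Cbr1, had 5.74, 6.19 and 6.05 against 6.56, 5.92 and 6.92 (0.48, SE 0.22, interval -0.02 to 0.97, adjusted p = 0.950 by limma), and here Apc+/-Atg7-/- replicate 3 was the highest of 6. Cbr1 (0.07, SE 0.16), the alcohol dehydrogenase Adh1 (-0.07, SE 0.15) and the aldehyde oxidase Aox1 (-0.10, SE 0.09) differed less.

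No conjugating enzyme passed the test between genotypes. The sulfotransferases Sult1b1 and Sult1d1, which are neighbours, differed by -0.08 (SE 0.17) and -0.10 (SE 0.21), each with Apc+/- replicate 1 the highest and Apc+/-Atg7-/- replicate 3 the lowest array. The glucuronosyltransferase Ugt2b34 differed by 0.15 (SE 0.12). The probe set that names Ugt1a1, the bilirubin-conjugating enzyme, along with 7 other Ugt1a genes had 8.82, 8.50 and 8.62 in Apc+/- and 9.04, 8.73 and 8.60 in Apc+/-Atg7-/- duodenum (0.14, SE 0.13), and its value cannot be given to 1 gene.

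Of the 4 efflux transporters, Abcc3 (MRP3), which exports glucuronides across the basolateral membrane, was the member with the smallest p. It had 8.36, 8.23 and 8.18 in Apc+/- and 8.75, 8.31 and 8.71 in Apc+/-Atg7-/- duodenum, a difference of 0.34 (SE 0.13, interval 0.05 to 0.62), or 1.26-fold, that did not pass (adjusted p = 0.923 by limma). Apc+/-Atg7-/- replicates 1 and 3 lay above the Apc+/- range and replicate 2 lay within it. The apical pumps Abcb1a (P-glycoprotein) and Abcc2 (MRP2) had the differences nearest 0 of the 4 but spread within Apc+/- duodenum. Abcb1a had 9.98, 9.60 and 8.97 against 9.30, 9.91 and 9.32 (-0.01, SE 0.24), and Abcc2 had 10.38, 10.61 and 9.52 against 10.30, 10.28 and 9.97 (0.01, SE 0.24). Apc+/- replicate 3 was the lowest of 6 for both pumps, and their direction turned under another scaling (Abcb1a 0.018 with centred arrays, Abcc2 -0.0034 after a further quantile normalization). Abcg2, the breast cancer resistance protein, differed by -0.11 (SE 0.17).

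Many members were high or low on the same arrays. Apc+/-Atg7-/- replicate 3 was the lowest of 6 arrays in 19 of 36 members (15.6% of all genes), Apc+/- replicate 1 the highest in 16 (14.6%) and the male array the highest in 13 (11.4%) and the lowest in 0 (16.2%). With arrays centred on their medians these counts were 20, 20 and 11, beside 17.9%, 25.9% and 15.3% of all genes. Averaged over the 11 P450s of families 2 and 3, the deviation from each gene's 6-array mean was 0.47, 0.33 and -0.11 in Apc+/- and 0.63, -0.39 and -0.93 in Apc+/-Atg7-/- replicates 1 to 3. Over the other 25 members it was 0.19, 0.03 and -0.14 against 0.16, -0.06 and -0.16. In both sets replicate 1 of each genotype was its highest array and replicate 3 its lowest, and the range was wider in the P450s.

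Markers of the tissue's cells moved in part with this order. The 21 enterocyte markers, 19 of them lower in Apc+/-Atg7-/- duodenum with a median of -0.15, deviated by 0.26, 0.17 and -0.12 in Apc+/- and by -0.01, 0.03 and -0.33 in Apc+/-Atg7-/- replicates 1 to 3. Apc+/- replicate 1 was the highest and Apc+/-Atg7-/- replicate 3 the lowest there too, but the male array was not high. In bulk tissue, fewer cells of a type and less RNA per cell cannot be told apart. The 10 smooth muscle markers deviated by -0.16, 0.38 and 0.22 against -0.04, -0.57 and 0.17, in another order. The 8 duodenal markers averaged 7.37 to 7.53 per array in Apc+/- and 7.47 to 7.85 in Apc+/-Atg7-/- duodenum, highest in Apc+/-Atg7-/- replicate 3. Of the 5 measured ileum and colon markers only Car4 was much lower in that array (8.20, against 9.86 to 11.11 in the other 5). Paneth cell markers other than Pla2g2a followed the genotype and not this array order, and their arrays did not overlap between genotypes. For Pla2g2a (-0.17, SE 0.25) the arrays overlapped. In sign 7 of 7 were lower, with a median of -1.02. In limma 3 passed the adjusted test, Ang4 at -2.49, Itln1 at -1.24 and Defa24 at -1.02 (adjusted p = 0.00944, 0.00311 and 0.0221). Of 8 measured pancreatic acinar markers 1 passed, Clps at -1.03 (adjusted p = 0.0219 by limma). The part of these markers in the members' values was not tested.

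**Figure D4:**
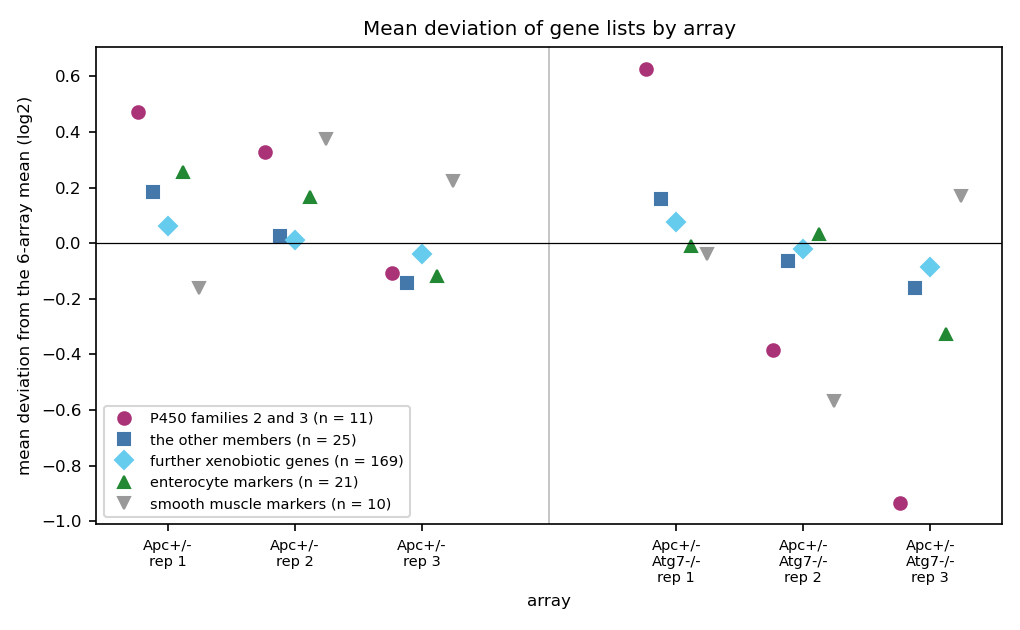
Mean deviation from the 6-array mean (vertical axis, log2) of 5 gene lists on each array (horizontal axis), 1 symbol per list, with points set side by side for legibility and Apc+/- arrays left of the grey line. The P450s of families 2 and 3 run from 0.63 in Apc+/-Atg7-/- replicate 1 to -0.93 in replicate 3. The 169 further xenobiotic genes stay between -0.09 and 0.07, with replicate 1 of each genotype highest and replicate 3 lowest there too. Of these 169, 66 had a mean signal below 5.63, as did 1 of the 11 P450s. The part of dim genes in the narrower range was not tested.

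Leaving out single arrays moved the counts. Without the male array, 10 of 36 members (27.8%) were lower at an unadjusted p under 0.05, beside 2.7% of all genes, and 0 were higher, beside 2.73%. Of these, 8 (22.2%) were also past 1.5-fold, beside 0.532% of all genes. The 10 were Cyp2b10, Cyp2c29, Cyp2c55, Cyp2c66, Cyp2d26, Cyp2j6, Cyp3a11, Cyp3a25, Cyp3a44 and Aldh1a1, with differences from -0.49 to -1.84, and 0 of them passed after adjustment (smallest adjusted p = 0.301 by limma, for Cyp2c66). Without Apc+/-Atg7-/- replicate 3, 0 members were lower and 0 higher at an unadjusted p under 0.05, beside 2.11% and 1.65% of all genes, with 19 members higher and 17 lower in sign and a median of 0.0078. The count of lower members was also 1 without Apc+/- replicate 2 (1.89% of all genes), 5 without Apc+/- replicate 3 (2.91%), 3 without Apc+/- replicate 1 (7.66%) and 3 without Apc+/-Atg7-/- replicate 2 (2.19%). Sex cannot be told apart from this single male array. The count of members with a pooled SD of at least 0.5 was 4 without the male array (Cyp2b10, Cyp3a11, Cyp3a25 and Ces1d), beside 0.672% of all genes, and 8 or 9 without any other array.

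Of 201 further phase I, conjugation, transport and regulatory genes, 169 were measured and 0 passed in limma, with 4 higher (2.37%) and 6 lower (3.55%) at an unadjusted p under 0.05, beside 2.38% and 2.73% of all genes, and a median difference of -0.01. Arrays did not overlap for 7 in the higher (4.14%) and 10 in the lower direction (5.92%), beside 4.81% and 5.23% of all genes. A pooled SD of at least 0.5 was found in 10 of the 169 (5.92%). The carboxylesterases Ces1g, at 6.14, 5.55 and 5.42 against 6.78, 6.18 and 6.43 (0.76, SE 0.20, adjusted p = 0.543 by limma), and Ces1f (0.57, SE 0.18, adjusted p = 0.793) had each Apc+/-Atg7-/- array above the whole Apc+/- range, unlike Ces1d and Ces2a. The lowest Apc+/-Atg7-/- and highest Apc+/- values were 6.18 and 6.14 for Ces1g and 10.08 and 10.06 for Ces1f. Those margins were narrower than the span of array medians (6.43 to 6.56). The other phase I genes of smallest p were Cyp3a16 (-0.26) and the vitamin D 25-hydroxylase Cyp2r1 (-0.42), both in the dimmest 25% of genes. For conjugation they were Ugt2b35 (0.51), Sult1c2 (0.29), Ugt2b36 (0.24, also in the dimmest 25%) and Sult1a1 (-0.17). For transport they were the nucleoside carrier Slc28a2 (-0.74, SE 0.26), the peptide carrier Slc15a1 (-0.43), Abcb11 (-0.32, also in the dimmest 25%) and Slc51a (-0.30). Among regulators and partners they were the oxysterol receptor Nr1h3 (-0.31, SE 0.10), Ptges3 (0.18), Rxra (-0.14) and Ppargc1a (-0.20). A list of 19 PXR and CAR targets, 17 of them measured and 12 of those members, had a median of -0.12, with 1 higher and 1 lower at an unadjusted p under 0.05, again Abcc3 and Cyp2b10.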

How the data were processed

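Per the labels' protocols, Trizol-extracted RNA of duodenum was made into biotinylated cDNA for the 6 Affymetrix arrays. The deposited values, 1 for each array and probe set, were made with RMA and Partek (versions and settings not given), per the submitters' processing notes. Values run from 2.40 to 13.3 and were taken as the log2 signals the authors deposited. The base was read from that range, so a fold change rests on it. RMA equalises arrays, which removes shifts shared by all transcripts, and array signal compresses differences of dim and very bright ones.

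Of 28853 probe sets, the platform annotation lists 23410, 21789 with 1 symbol and 1621 with several, and the other 5443 were left unnamed. The probe set of highest mean stood for each of 19938 genes, without a filter on signal. The test was limma's (version 3.58.1, in R 4.3.3; lmFit, eBayes, two-sided, moderated df 9.7, of which 5.7 are prior), adjusted by Benjamini-Hochberg over all genes, with 95% intervals. With 3 arrays a side, the smallest p of an exact permutation test is 0.1. The script was tested on simulated data. Pairs of arrays correlated at 0.989 to 0.994, with a lowest SD of differences of 0.213, so none was taken as a repeat.

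The members and gene lists were chosen with earlier results of these data known. Values per array are given for members with a difference of at least 0.5, an unadjusted p under 0.05, arrays that do not overlap or an SD of at least 0.5 within a genotype, and for the 5 regulators. From each further list at most 4 genes of smallest p are named. The alternatives were a replicate block, other scalings, moderation and weights, filters on dim genes, other probe-set rules, and each array left out. Promoter windows are RefSeq's (GRCm38.p6), with no entry used for Ahr, Ces1d and Abcc3. Plots used Python 3.11.15 and matplotlib 3.10.9.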

Additional observations from a re-analysis of the deposited data

How the results depend on the processing

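Under all 16 alternatives, 0 members passed an adjusted p of 0.05 (main count 0, smallest adjusted p = 0.0927, for Cyp2b10 with the replicate number as a block). Deviations of same-numbered samples over all genes correlated at 0.15, -0.07 and 0.24. Apc+/- replicate 1 correlated best with Apc+/-Atg7-/- replicate 2 (0.18). With 3 arrays a side these values cannot decide whether the numbers pair the samples. With the replicate block, 2 members were higher and 7 lower at an unadjusted p under 0.05, beside 2.8% and 3.68% of all genes, and 2 were lower past 1.5-fold, beside 0.401%. Over all genes 22 were then called higher and 22 lower, among them 2 further xenobiotic genes, Ces1g (0.76, adjusted p = 0.0338) and Maob (-0.86, adjusted p = 0.0359). The median member difference stayed between -0.21 (without Apc+/- replicate 3) and 0.0078 (without Apc+/-Atg7-/- replicate 3). For the values below that changed, the cause was not tested.

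The count of members higher at an unadjusted p under 0.05 (1 in the report) was 2 after further quantile normalization or centring and 0 without variance moderation. The count lower (2) was 1 with variance trend and robust moderation, with array weights, with the dimmest 50% of genes removed (29 members left) and with every probe set, and 0 with centring or without moderation. The count lower past 1.5-fold (1) was 0 under the same settings except array weights, and the count of non-overlapping lower members (1) was 0 with centring. Over all genes (14 higher, 8 lower), 0 and 0 were called without moderation and 23 and 16 with every probe set, which tests more rows.

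Without single arrays, members at an unadjusted p under 0.05 ranged from 0 to 2 higher and 0 to 10 lower, non-overlapping members from 0 to 3 higher and 1 to 10 lower, members past 1.5-fold from 0 to 1 higher and 0 to 8 lower, all genes called from 0 to 16 higher and 2 to 11 lower, and members with a pooled SD of at least 0.5 from 4 to 9. With fewer arrays groups overlap less often: for the 10 lower members that did not overlap without the male array, the share of all genes was 9.63%, and for the 3 higher without Apc+/-Atg7-/- replicate 2 it was 7.25%. The pooled SD count and its alternatives were chosen after seeing the data.

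Directions turned after further quantile normalization for Abcc2 (-0.0034), with centring for Nr1i2 (0.00087) and Abcb1a (0.018), and with array weights for Tiparp (0.030), Nr1i2 (0.039), Nr1i3 (0.025), Ephx1 (0.0063), Adh1 (0.018), Sult1b1 (0.053), Sult1d1 (0.056) and Abcb1a (0.24). Without single arrays 18 of 36 members kept their direction. The other 18 ranged from -0.12 to 0.048 for Tiparp, -0.13 to 0.13 for Nr1i2, -0.29 to 0.061 for Nr1i3, -0.19 to 0.0078 for Cyp1a1, -0.93 to 0.27 for Cyp2c55, -0.11 to 0.38 for Cyp2c65, -0.89 to 0.14 for Cyp2c66, -1.05 to 0.10 for Cyp3a25, -0.59 to 0.10 for Ces1d, -0.36 to 0.43 for Ces2a, -0.22 to 0.14 for Ephx1, -0.20 to 0.077 for Adh1, -0.093 to 0.18 for Cbr1, -0.21 to 0.11 for Sult1b1, -0.29 to 0.12 for Sult1d1, -0.28 to 0.22 for Abcb1a, -0.30 to 0.035 for Abcg2 and -0.32 to 0.23 for Abcc2. Signal over background limits Ahrr, Cyp1a1, Cyp2c29 and Aox1, the 4 members in the dimmest 25% of genes.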

Other observations

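Of the 169 further xenobiotic genes, 10 had a pooled SD within genotypes of at least 0.5, and they are named here after their values were seen. Ugt2a3, a glucuronosyltransferase of the intestine, had 9.61, 8.84 and 8.69 in Apc+/- and 9.29, 8.58 and 7.20 in Apc+/-Atg7-/- replicates 1 to 3 (pooled SD 0.83), with Apc+/-Atg7-/- replicate 3 the lowest of 6 as for Cyp3a11. Maob, a monoamine oxidase, had 9.50, 8.74 and 8.11 against 8.41, 8.22 and 7.13, with the same array lowest and the male array not high. Cyp2c68 had 8.17, 7.18 and 7.21 against 8.55, 7.87 and 7.15, and Adh4 had 8.93, 8.43 and 8.0 against 9.64, 8.54 and 8.69. In these and in Cyp2c67, Aldh1a7, Akr1c14, Akr1c19, Ugt2b38 and Fmo2, the highest array was Apc+/- replicate 1 or the male. Those arrays were the highest for 14.6% and 11.4% of all genes, or 25.9% and 15.3% with arrays centred on their medians. In Fmo2 the male array was the lowest of 6, at 6.71.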
